A study of Mus musculus with 6 samples.

Results

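Major urinary protein (Mup) genes of the mouse were examined in the liver, namely Mup3, Mup7, Mup9, Mup10, Mup11, Mup17, Mup18, Mup19, Mup20 and Mup21. They are 10 of the 21 Mup genes, and of the 18419 genes with any expected count, in the deposited files. They were chosen on the contrast of AAV8-TBG-Cre with AAV8-TBG-GFP itself, to set genes whose transcripts were lower beside genes whose transcripts held, so their values in that contrast are a description and carry no test. All 6 mice were Mettl14f/f males, homozygous for a loxP-flanked allele of Mettl14, a subunit of the complex that writes m6A on RNA. HFD (high-fat diet) began at 8 weeks of age, a vector was injected into the tail vein after 10 weeks of HFD, and liver RNA was taken 8 weeks later. AAV8-TBG-Cre (n = 3 mice) carries Cre recombinase, and AAV8-TBG-GFP (n = 3 mice) carries a fluorescent protein as the control. The thyroxine-binding globulin (TBG) promoter in both vectors restricts expression to hepatocytes, so other liver cells keep the floxed allele. The sample labels call the 2 groups METTL14 KO and WT, although the WT livers also carry the floxed allele and a vector. They are called the Cre livers and the control livers here, each numbered by its replicate.

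Major urinary proteins are small secreted lipocalins, barrel-shaped carriers that hold volatile molecules in a pocket. Hepatocytes make them, most abundantly in males, and release them into blood, from which they pass into urine and act as scent signals. Pulsatile growth hormone acting through STAT5, together with androgen and thyroid hormone, is known to keep their transcription high in the male liver. Mup20 encodes darcin, a pheromone of male urine that attracts females.

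The libraries held between 20356440 and 21010508 expected counts. Markers of hepatocytes were abundant in all 6, with summed levels of 128567 to 156472 CPM (counts divided by the TMM-scaled library size) in the control livers and 113572 to 138297 CPM in the Cre livers. Xist and 4 Y-linked genes together summed to 103 to 120 CPM in each library, of which Xist gave at most 0.411 CPM. Mettl14 itself was at 6.30, 6.43 and 5.81 CPM in the control livers and at 4.96, 5.38 and 4.86 CPM in the Cre livers, a log2 fold change of -0.29 ± 0.15 (SE) with an adjusted p of 0.336 from edgeR. Counts over the whole gene do not separate the deleted from the remaining exons, so the groups are called by their labels. Cre liver 2 had the largest TMM factor, 1.18, against 0.913 to 1.02 in the other 5 libraries.

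The 21 Mup genes lie in 1 cluster on chromosome 4 that spans 2.19 Mb in GRCm38, the assembly that the submitters' processing notes name as mm10. The annotation gives Mup20 a length of 42807 bp and the other members 3010 to 4040 bp. In chromosome order the members are Mup7 (chr4:60066469-60070475), Mup9 (chr4:60418046-60422085), Mup10 (chr4:60578260-60582276), Mup11 (chr4:60658466-60662432), Mup17 (chr4:61591929-61595865), Mup18 (chr4:61670177-61674132), Mup19 (chr4:61778324-61782355), Mup20 (chr4:62011337-62054143), Mup3 (chr4:62083476-62087317) and Mup21 (chr4:62147832-62150841). Mup17, Mup18 and Mup19 are consecutive measured genes, and the gaps between them are 74.3 and 104.2 kb.

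RefSeq promoter windows of GRCm38.p6, from 250 bases before to 50 bases after the annotated start, were matched by gene ID for 9 of the 10 members. Those of the 3 neighbours and of Mup3 are shown, 5′ to 3′ on the minus strand, because Mup18 had a positive fold change between neighbours with negative ones. They lie at chr4:61595783-61596082 (Mup17), chr4:61782175-61782474 (Mup19), chr4:61674045-61674344 (Mup18) and chr4:62087268-62087567 (Mup3). The start used for Mup17, Mup18 and Mup19 lies inside the gene coordinates given above, while that for Mup3 lies at their upper end. Capitals mark bases that differ from, or are inserted relative to, Mup17 in a pairwise alignment of each window with it. Bases that reach past either end of the Mup17 window have no counterpart in it. They are left in lower case, so lower case there does not mean a match.
Mup17: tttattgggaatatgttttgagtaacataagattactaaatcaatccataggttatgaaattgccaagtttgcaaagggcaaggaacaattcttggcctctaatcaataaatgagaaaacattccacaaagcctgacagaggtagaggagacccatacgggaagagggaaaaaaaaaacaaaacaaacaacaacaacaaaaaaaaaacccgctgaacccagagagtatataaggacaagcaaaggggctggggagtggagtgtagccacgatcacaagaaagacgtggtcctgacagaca
Mup19: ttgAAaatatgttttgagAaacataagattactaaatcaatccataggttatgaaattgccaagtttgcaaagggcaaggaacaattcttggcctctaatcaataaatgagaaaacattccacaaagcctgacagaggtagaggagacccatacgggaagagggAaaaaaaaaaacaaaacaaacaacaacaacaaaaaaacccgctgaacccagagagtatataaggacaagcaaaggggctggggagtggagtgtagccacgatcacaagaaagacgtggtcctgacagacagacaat
Mup18: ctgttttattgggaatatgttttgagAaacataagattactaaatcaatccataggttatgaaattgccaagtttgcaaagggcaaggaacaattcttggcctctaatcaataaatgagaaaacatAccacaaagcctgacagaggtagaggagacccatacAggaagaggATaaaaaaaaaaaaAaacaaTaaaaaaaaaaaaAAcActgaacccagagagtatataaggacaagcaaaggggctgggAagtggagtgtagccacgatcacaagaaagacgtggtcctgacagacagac
Mup3: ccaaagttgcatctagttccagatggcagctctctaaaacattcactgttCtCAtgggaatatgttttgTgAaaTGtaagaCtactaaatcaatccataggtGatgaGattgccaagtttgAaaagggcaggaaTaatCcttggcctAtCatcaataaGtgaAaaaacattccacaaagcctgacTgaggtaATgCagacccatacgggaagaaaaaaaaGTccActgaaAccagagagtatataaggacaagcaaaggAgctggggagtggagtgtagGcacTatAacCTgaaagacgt

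Over the aligned columns the Mup17 window was 97.6% identical to that of Mup19, 94.0% to that of Mup18 and 76.9% to that of Mup3. Among Mup9, Mup10, Mup11, Mup17, Mup18 and Mup19 the 15 pairs were 90.9% to 98.9% identical, and any of these 6 was 73.7% to 78.4% identical to Mup3 or Mup21. Many of the Mup18 capitals fall in the run of adenines upstream of the start. The letters TATAAG were chosen after the windows were read, and occur on either strand in 8 of the 9 member windows, all but that of Mup7, and in 7.4% of 32851 windows of all genes. TATAAA occurs in 0 of the 9 and in 13.6% of all windows. The STAT5 motif TTCNNNGAA (8.3% of all windows), the FOXA motif TGTTTGC (5.1%) and the HNF4 motif CAAAGTCCA (0.5%) occur on either strand in 0 of the 9, which says only that these letters are not in these windows.

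The coding sequences of most members are close to identical. In GENCODE vM1 transcripts, matched by symbol, the coding sequences of Mup7, Mup9, Mup10, Mup11, Mup17, Mup18 and Mup19 were 98.4% to 99.8% identical in all 21 pairs. The share of 100-base windows of a transcript that occur in no other measured Mup transcript was 40.6% for Mup17, 26.7% for Mup10, 16.5% for Mup11, 14.9% for Mup9, 14.6% for Mup7, 12.9% for Mup18 and 0.0% for Mup19. It was 100% for Mup20, 96.9% for Mup3 and 95.5% for Mup21. In the deposited files 0 of the 134 transcript values of Mup genes were whole numbers (within 0.005), against 45.4% of all transcript values. Expected counts divide fragments that several transcripts could have given. The level of each of the 7 alike members is therefore an uncertain division. Mup20, Mup3 and Mup21 share few or no such windows. Their values were not whole numbers either, so the windows do not show that their counts are undivided.

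In the control livers the members covered a wide range of levels. On the FPKM scale, which divides by transcript length, Mup19 was highest at 18597 ± 4255 (SD, n = 3), followed by Mup10 at 10616 ± 1194 (SD, n = 3). Mup3 (5191 ± 1339), Mup11 (4715 ± 1602) and Mup20 (4419 ± 898) came next (SD, n = 3 each), and neighbours among these 3 overlapped. Every library of Mup20 was above every library of Mup17 (2075 ± 927), which overlapped Mup7 (2062 ± 1758), as Mup7 did Mup18 (1194 ± 144) (SD, n = 3 each). Mup9 at 271 ± 242 and Mup21 at 104 ± 48.3 FPKM were lowest (SD, n = 3 each), and their libraries overlapped. In the Cre livers the order was different. Mup10 led at 6858 ± 2705 FPKM, then Mup20 at 4829 ± 2230, Mup3 at 2878 ± 1238 and Mup18 at 2042 ± 422, and Mup19 stood 5th at 1913 ± 2848 (SD, n = 3 each). Every pair of neighbours in the Cre order overlapped.

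**Figure D1:**
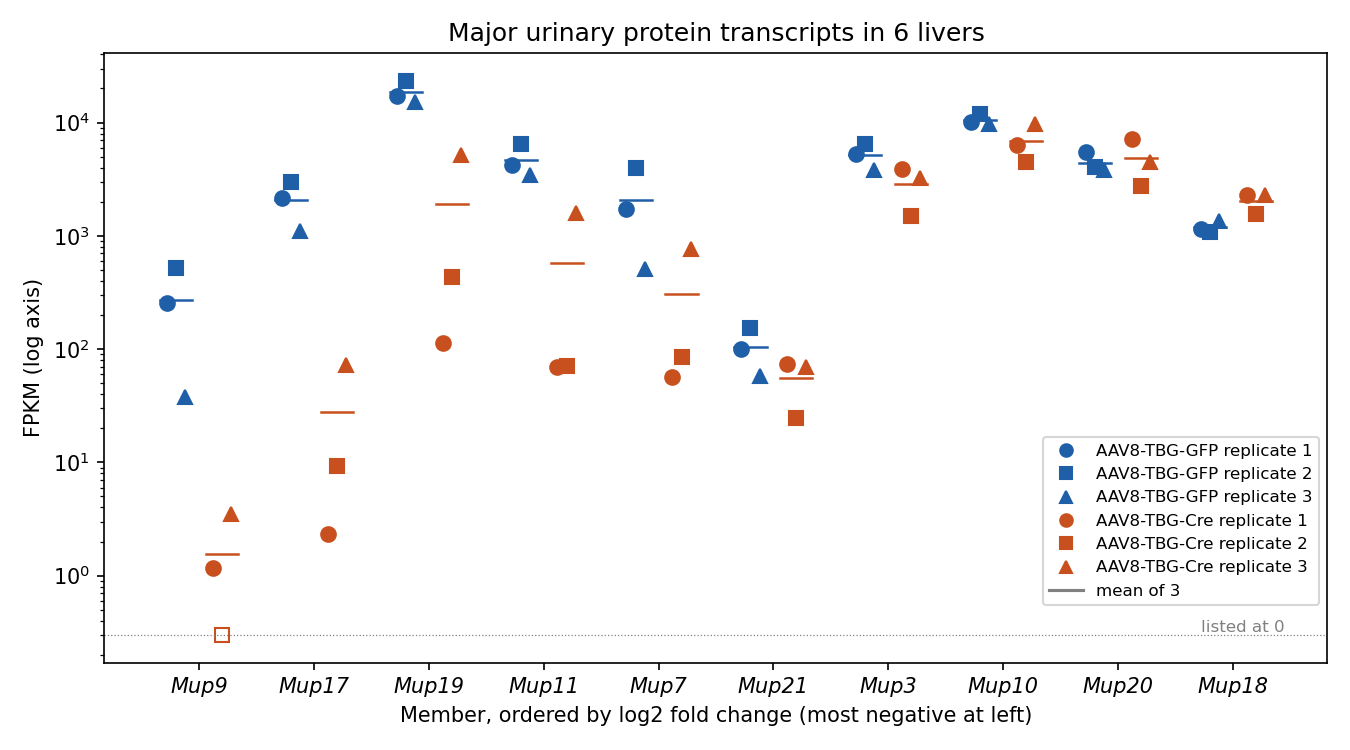
FPKM of the 10 members (log axis) in each liver, AAV8-TBG-GFP in blue and AAV8-TBG-Cre in orange, with a short line at the mean of 3 and an open symbol on the dotted line for a value listed at 0. The Cre symbols of Mup9, Mup17, Mup19 and Mup11 all sit below the control symbols. Those of Mup20 lie above, among and below the control symbols. For Mup18 the Cre symbols all lie above, from 1554 to 2292 against 1086 to 1356 FPKM.

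Mup19, the most abundant member of the control livers, was at 15145, 21150 and 14430 CPM in control livers 1, 2 and 3. In Cre livers 1, 2 and 3 it was at 95.4, 313 and 4511 CPM, which is 0.564%, 1.85% and 26.7% of the control mean. Every Cre liver was below every control liver, and the 3 Cre livers differed among themselves by 47.3-fold. The log2 fold change was -3.37 ± 1.26 (SE). Since 0.0% of the 100-base windows of Mup19 are its own, these values rest on the estimated division of fragments.

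Mup17, the neighbour of Mup18 on the other side, was at 1932, 2701 and 1056 CPM in the control livers and at 1.96, 6.86 and 62.9 CPM in the Cre livers, a log2 fold change of -6.31 ± 1.28 (SE). The Cre livers held 0.103%, 0.362% and 3.32% of its control mean. Mup9 was at 226, 473 and 36.1 CPM in the control livers and at 0.954, 0 and 3.03 CPM in the Cre livers, and the count of 0 in replicate 2 allows up to 3 counts, or 0.123 CPM (counting error only). Its log2 fold change of -7.56 ± 1.31 (SE) was the most negative of the 10, although the control livers themselves spread over 13.1-fold.

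Mup11 was at 3944, 6209 and 3409 CPM in the control livers and at 61.6, 54.4 and 1468 CPM in the Cre livers, a log2 fold change of -3.10 ± 1.23 (SE). Mup7 was at 1800, 4246 and 564 CPM in the control livers and at 56.8, 73.6 and 793 CPM in the Cre livers, a log2 fold change of -2.84 ± 1.14 (SE). Mup7 is the only one of these 5 whose groups overlap, since Cre liver 3 was above control liver 3. In all 5 genes control liver 2 was highest, and Cre liver 3 was the highest of its group. Without that library the log2 fold change was -6.38 for Mup19, -8.74 for Mup17, -9.07 for Mup9, -6.29 for Mup11 and -5.08 for Mup7, so the size of these values depends on that liver. Without control liver 2 it was -6.67 for Mup9 and -1.95 for Mup7.

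A second set of members was lower on average by a smaller amount. Mup10 was at 9296, 11224 and 9536 CPM in the control livers and at 5524, 3365 and 8808 CPM in the Cre livers (log2 fold change -0.76 ± 0.35, SE). Mup3 was at 4895, 6146 and 3764 CPM against 3435, 1146 and 2942 CPM (log2 fold change -0.98 ± 0.41, SE). Both genes had no overlap in CPM, but their groups overlapped in FPKM and in counts divided by the library total. For Mup10 the overlap in FPKM came from Cre liver 3 at 9786 against 9775 in control liver 3, and for Mup3 from Cre liver 1 at 3899 against 3819 in control liver 3. Mup21, the least abundant member in the controls, was at 76.7, 119 and 46.1 CPM against 52.5, 15.4 and 51.7 CPM, and its groups overlapped (log2 fold change -1.01 ± 0.49, SE).

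Mup18 had a higher mean in the Cre livers, and Mup20 had a mean of 4112 CPM there and 4127 CPM in the control livers. Whether either differed from the other members was not tested. Only 12.9% of the 100-base windows of Mup18 are its own, so its values rest on the estimated division of fragments. Mup18 was at 1024, 993 and 1291 CPM in the control livers and at 1940, 1146 and 2013 CPM in the Cre livers, with a positive log2 fold change of 0.62 ± 0.25 (SE). In CPM its Cre liver 2 fell between the controls, whereas in FPKM and per library total every Cre liver was above every control liver. Mup20, the darcin gene, was at 4977, 3744 and 3660 CPM in the control livers and at 6233, 2084 and 4018 CPM in the Cre livers. Its Cre livers were at 151%, 50.5% and 97.4% of the control mean, on both sides of all 3 control livers, and the log2 fold change was -0.01 ± 0.38 (SE).

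In CPM, 6 of the 10 members (Mup3, Mup9, Mup10, Mup11, Mup17 and Mup19) were lower in every Cre liver than in any control liver, as were 13.0% of the 13431 genes tested. None of the 10 was above every control liver in CPM, where 14.0% of the genes tested were. The members' choice used this contrast, so nothing is read from these counts. The median log2 fold change was -1.93 over the 10 members and -0.01 over all genes tested.

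**Figure D2:**
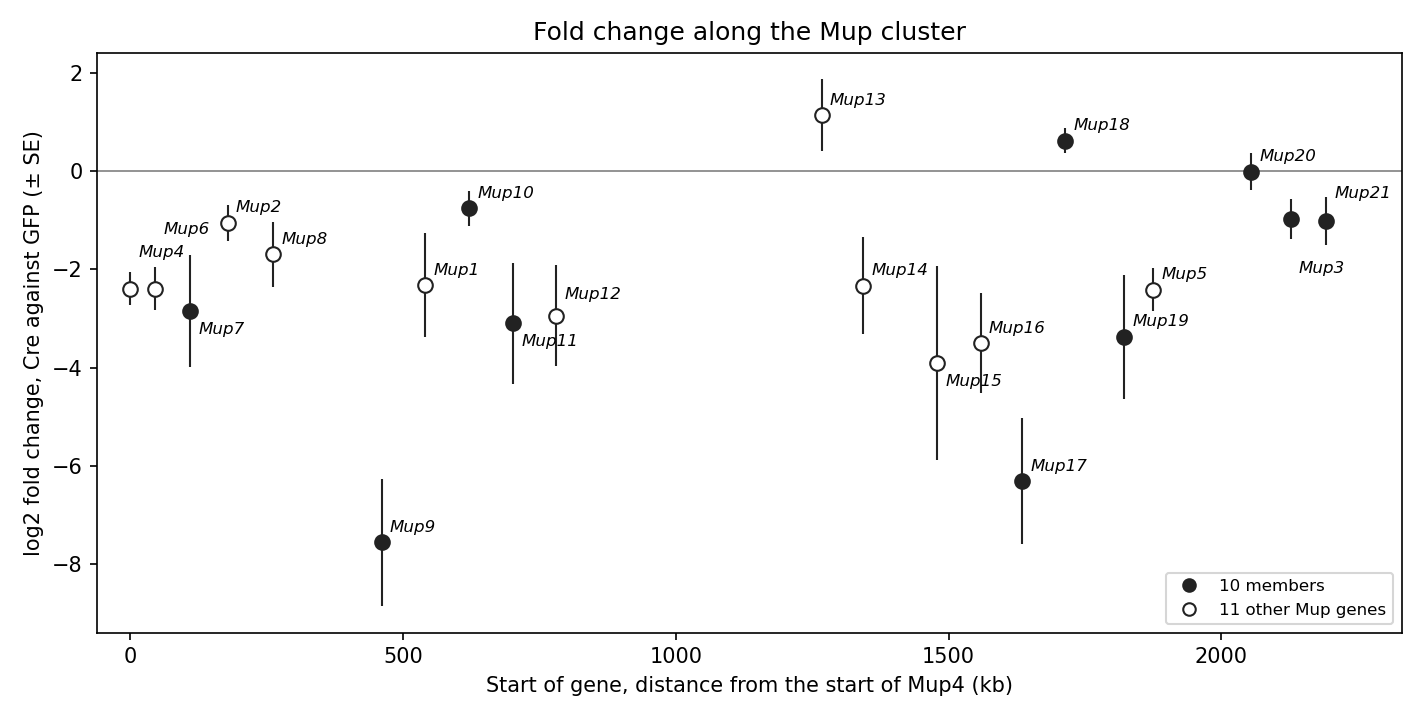
Log2 fold change (AAV8-TBG-Cre against AAV8-TBG-GFP) with its SE from edgeR against the start of each gene along the cluster, in kb from the start of Mup4, with members filled and other Mup genes open. Mup18 at 0.62 stands between Mup17 at -6.31 and Mup19 at -3.37, while Mup20, Mup3 and Mup21 at the far end lie between -1.01 and -0.01.

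A sum over genes does not depend on how the fragments shared within it were divided. All 21 Mup genes together took 5.44%, 7.45% and 4.39% of the expected counts in control livers 1, 2 and 3 and 2.09%, 1.18% and 3.19% in Cre livers 1, 2 and 3. In CPM the sum was 60885 ± 15612 (SD, n = 3) in the control livers and 20901 ± 11115 (SD, n = 3) in the Cre livers, a log2 ratio of the means of -1.54. The groups did not overlap. The 15 Mup genes with alike transcripts, members and others, summed to 46280, 68239 and 40608 CPM in the control livers and to 10734, 6764 and 25207 CPM in the Cre livers, without overlap. The sum of the 7 members among them, which can share fragments with the other 8, was 33366, 46995 and 30322 CPM in the control livers and 7681, 4959 and 17660 CPM in the Cre livers, also without overlap. Mup3, Mup20 and Mup21 share few or no 100-base windows with other measured Mup transcripts. Their sum was 9949, 10009 and 7471 CPM against 9721, 3245 and 7012 CPM, and these groups overlapped. Mup18 and Mup11 have coding sequences 99.8% identical, as close as either is to any other measured Mup gene, and summed to 4967, 7202 and 4700 CPM in the control livers and to 2002, 1201 and 3482 CPM in the Cre livers. This pair sum was lower in every Cre liver, while Mup18 alone was not. How the division of fragments between them bears on the Mup18 value was not tested.

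The make-up of the Mup transcripts also differed between the livers. Mup19 gave 26.9%, 27.0% and 30.0% of all Mup counts in the control livers and 0.47%, 3.12% and 14.0% in the Cre livers. Mup20 gave 8.85%, 4.78% and 7.61% in the control livers and 30.5%, 20.8% and 12.5% in the Cre livers. Mup18 gave 1.82%, 1.27% and 2.68% against 9.48%, 11.5% and 6.25%, and Mup10 gave 16.5%, 14.3% and 19.8% against 27.0%, 33.6% and 27.3%. The groups did not overlap for any of these 4 shares. Shares are parts of a whole, so less Mup19 by itself raises the shares of the other genes. Mup10 had a larger share in the Cre livers, although its mean was 5899 CPM there and 10019 CPM in the control livers. The members were chosen on this contrast, so nothing is read from the lack of overlap. In bulk liver RNA, fewer cells of a type and less RNA per cell cannot be told apart.

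**Figure D3:**
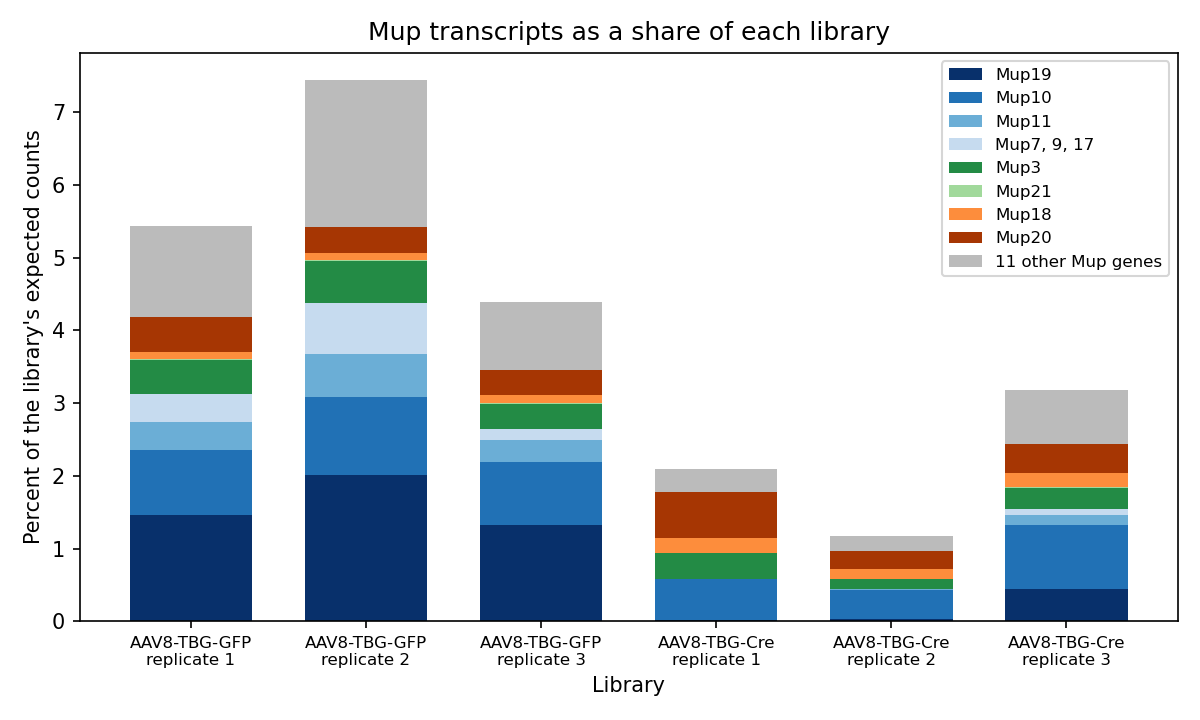
Expected counts of Mup genes as a percent of each library's total, stacked by gene, with the control livers at left and the Cre livers at right. The bars reach 4.39% to 7.45% in the control livers and 1.18% to 3.19% in the Cre livers, and the Mup19 block at the base nearly disappears in Cre livers 1 and 2.

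Of the 11 other Mup genes, Mup4 was the only one with an adjusted p under 0.05 in edgeR, and it was lower in the Cre livers, a side on which 0.447% of the genes tested passed. It was at 8.23, 10.0 and 7.28 CPM in the control livers and 1.53, 0.904 and 2.46 CPM in the Cre livers (log2 fold change -2.39 ± 0.34, adjusted p = 0.0363 from edgeR). This call was kept in 11 of 17 alternative fits, and in 2 of the 6 that left out a library, those without Cre liver 1 or 3. By DESeq2, 4 of the 11 (Mup2, Mup4, Mup5 and Mup6) were lower at an adjusted p under 0.05, as were 409 of the 18419 genes fitted. At the study's threshold, a fold change of at least 1.2 with an unadjusted p under 0.05, 8 of the 11 were lower, where 8.41% of the genes tested were, and 0 were higher, where 12.0% were. Among these 8, Mup2, Mup8, Mup12, Mup14 and Mup16 had only 2.7% to 22.5% of their 100-base windows to themselves. Their levels are an uncertain division of fragments shared with each other and with members, so the 8 are not separate observations. Mup5 and Mup6, which like Mup4 share few windows with other Mup genes, had adjusted p values of 0.0552 each from edgeR and log2 fold changes of -2.41 ± 0.44 and -2.39 ± 0.44 (SE). Mup2, the most abundant of the others, was at 5859, 6352 and 6557 CPM against 2760, 1628 and 4701 CPM. Mup1, Mup8, Mup12, Mup14, Mup15 and Mup16 had log2 fold changes between -3.91 and -1.69. Mup13 was the only other Mup gene with a positive value, 1.14 ± 0.73 (SE), at a level of 0.452 to 4.25 CPM, and without Cre liver 1 its value was -0.09.

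The library names come in 2 forms, short for control livers 1 and 2 and Cre liver 1 and long for the other 3 libraries. What the form stands for is not given in the sources used here. Comparing long with short libraries with the vector in the model does not use the values that chose the members. For 0 of the 10 members did this comparison reach an adjusted p under 0.05 (0.369 to 0.988 from edgeR), where 1.39% of the genes tested did. At an unadjusted p under 0.05 edgeR gave 0 of the 10, where 16.9% of the genes tested passed. DESeq2 gave 0 at an adjusted p under 0.05 (5.58% of its genes) and 1 at an unadjusted p under 0.05 (10.8% of its genes), which was Mup20 with a log2 difference of -0.64, lower in the long-named libraries. The SE was 1.23 to 2.09 on the log2 scale for Mup7, Mup9, Mup11, Mup17 and Mup19, so a difference of several fold between the forms was not detectable in them. It was 0.26 to 0.43 for the other 5. Within the short names the log2 ratio of AAV8-TBG-Cre to AAV8-TBG-GFP was -7.57 for Mup19, -10.2 for Mup17, -6.37 for Mup11 and -5.73 for Mup7. Within the long names it was -2.58, -4.92, -2.16 and -0.38 for the same genes in the same order. The 2 long-named Cre livers differed from each other. Cre liver 2 was at 313, 6.86, 54.4 and 73.6 CPM, and Cre liver 3 at 4511, 62.9, 1468 and 793 CPM. Short-named Cre liver 1 was at 95.4, 1.96, 61.6 and 56.8 CPM. Most of the long-named Cre mean therefore came from Cre liver 3. Mup18 was at 0.94 and 0.29, and Mup20 at 0.52 and -0.26, within the short and the long names. With 1 or 2 libraries on a side these values have no replicate check.

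Genes of the growth hormone pathway were then read beside the members. Of 13 tested genes of growth hormone and STAT5 signalling, 0 passed an adjusted p under 0.05 in edgeR in either direction, 3 had an unadjusted p under 0.05 with a fold change of at least 1.2, and the median log2 fold change was 0.09. On the higher side 0.484% of all genes tested passed the adjusted threshold. Those 3 were the receptor gene Ghr (-0.46 ± 0.19), the transcription factor gene Stat5a (-0.47 ± 0.11) and Socs3, a feedback inhibitor (1.06 ± 0.37), as log2 fold changes ± SE. Ghr was at 614, 626 and 547 CPM in the control livers and at 555, 355 and 390 CPM in the Cre livers, with overlap. Stat5b, the STAT5 gene most used by growth hormone in hepatocytes, was at 65.9, 72.5 and 61.3 CPM against 60.2, 53.9 and 56.4 CPM (log2 fold change -0.23 ± 0.11, adjusted p = 0.265 from edgeR). Target genes of STAT5 outside the Mup cluster gave values of 0.28 ± 0.20 for Igf1, 0.60 ± 0.30 for Socs2 and 0.48 ± 0.86 for Cish (log2 fold change ± SE). Igfals, of the same list, had a negative value of -0.41 ± 0.19 (SE). The groups of each of these genes overlapped in CPM. In FPKM and per library total every Cre liver was above every control liver for Igf1, while Socs2, Cish and Igfals overlapped. Bcl6, a repressor more abundant in male liver, had a log2 fold change of -0.76 ± 0.73 (SE), and Cux2, a female-specific factor, was below the count filter.

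Other male-biased liver genes gave a mixed picture. Of 14 tested, 11 had a negative log2 fold change, with a median of -0.37, and only Elovl3 passed an adjusted p under 0.05. It was lower, a side on which 0.447% of the genes tested passed. By the study's threshold 3 of the 14 were lower, where 8.41% of the genes tested were, and 1 was higher, where 12.0% were. Elovl3, which elongates long fatty acids, was at 50.8, 68.5 and 70.8 CPM in the control livers and at 11.7, 11.8 and 17.3 CPM in the Cre livers (log2 fold change -2.22 ± 0.20, adjusted p = 0.0149 from edgeR). Hsd3b5, a steroid reductase gene, was at 26.4, 42.8 and 2.20 CPM against 1.67, 0.370 and 2.07 CPM, with an adjusted p of 0.0854 from edgeR. Obp2a, a lipocalin gene, was at 4.27, 5.82 and 1.15 CPM against 0.286, 0 and 0.144 CPM, with an adjusted p of 0.0562 from edgeR. Both had their lowest control value in control liver 3, as had every member other than Mup10 and Mup18. Cyp4a12b went the other way at 9.15, 16.5 and 8.17 CPM against 19.5, 33.5 and 81.9 CPM (log2 fold change 1.99 ± 0.53, adjusted p = 0.0970 from edgeR).

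Of 6 tested female-biased genes, 0 passed an adjusted p under 0.05, and at an unadjusted p under 0.05 with a fold change of at least 1.2 there were 2 higher (Cyp2a4 and Atp6v0d2) and 2 lower (Cyp2b9 and Cyp2b13). The other 7 female-biased genes in the files were below the count filter. Of 15 regulators of hepatocyte transcription, Nr1i3, the xenobiotic receptor CAR, passed on the lower side (log2 fold change -0.90 ± 0.15, adjusted p = 0.0491 from edgeR). That call, on a side where 0.447% of the genes tested passed, was kept in 4 of 17 alternative fits. Its adjusted p values reached 0.198, and it was kept in 1 of the 6 fits that left out a library. By the study's threshold 3 regulators were lower, where 8.41% of the genes tested were, namely Nr1i3, Cebpb (-0.65 ± 0.15) and Nr1h4 (-0.48 ± 0.15). Foxa3 (0.68 ± 0.28) was the 1 that was higher, where 12.0% were (log2 fold change ± SE). Zhx2, known as a repressor of fetal liver genes and a regulator of Mup genes, had a log2 fold change of -0.14 ± 0.16 (SE), and Hnf4a, a master hepatocyte factor, one of 0.07 ± 0.19 (SE). Of 10 tested lipocalin genes outside the cluster, Obp2a among them, 0 passed an adjusted p under 0.05. Rbp4, the retinol carrier and another abundant secreted lipocalin, was at 2890, 3044 and 2886 CPM against 2501, 2429 and 3568 CPM.

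Markers of other cell types were read in the same way. All 8 cholangiocyte (bile duct cell) markers had positive values, and Sox9, Spp1 and Cldn4 passed an adjusted p under 0.05 in edgeR (0.0454, 0.0444 and 0.0409). The call was kept in 4 of 17 alternative fits for Sox9, 6 of 17 for Spp1 and 7 of 16 for Cldn4, and for each in 1 of the 6 that left out a library, the one without Cre liver 1. The summed level of the 8 markers was 72.2 to 128 CPM in the control livers and 306 to 574 CPM in the Cre livers, and the defining keratin Krt19 was at 0.714 to 1.88 against 4.10 to 10.4 CPM. Macrophage and Kupffer cell markers summed to 162 to 201 CPM against 263 to 437 CPM, and 0 of 8 passed an adjusted p under 0.05. At the study's threshold 5 of these 8 were higher, where 12.0% of the genes tested were, and 0 were lower, where 8.41% were. Hepatocyte markers, where the members are made, had a median log2 fold change of -0.18 over 12 genes and 0 passed. At the study's threshold 2 of these 12 were higher and 2 lower. Of the adipocyte markers, Cfd and Cidea passed on the lower side with adjusted p values of 0.0149 and 0.0330 from edgeR, calls kept in 13 of 17 and 9 of 16 alternative fits. Lep, the other adipocyte marker tested, had a log2 fold change of 0.76 ± 0.47 (SE). Adipoq and Plin1 were at or under 0.575 CPM in every library, and Adipoq was above every control liver in each Cre liver. The part of these markers in the Mup values was not tested. In these lists no call was kept without control liver 2 or Cre liver 2, since 0 genes of the whole table then passed, and without Cre liver 1 the cholangiocyte calls were 7.

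**Figure D4:**
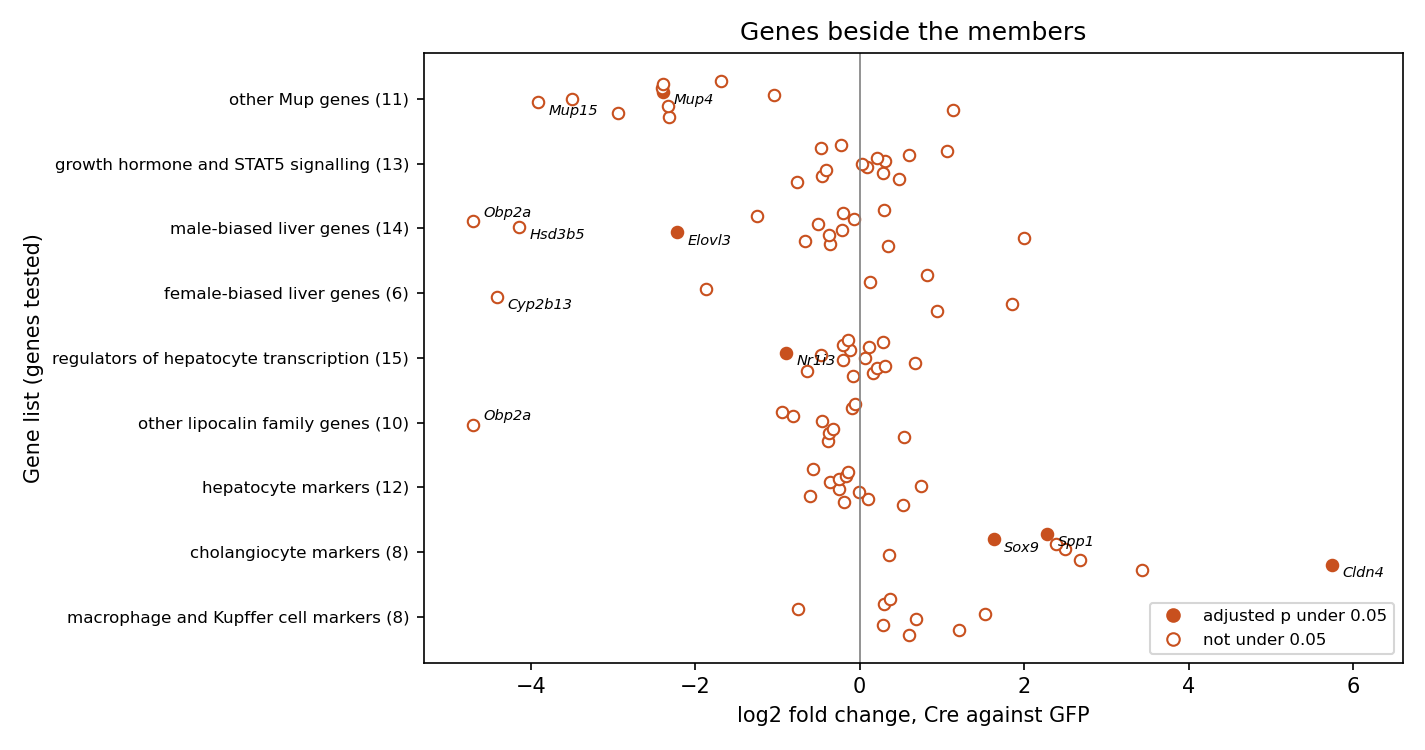
Log2 fold change of each tested gene of 9 lists, filled where the adjusted p from edgeR is under 0.05. The other Mup genes lie mostly between -3.91 and -1.05, while genes of growth hormone and STAT5 signalling lie between -0.76 and 1.06.

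Over the 6 libraries, the genes outside the family whose log2 CPM followed the summed members most closely were Usp8, Zfp91, Cmtm6, Daglb and Dnaja3, with Pearson's r of 0.992 to 0.997 among 7868 genes with a mean of at least 10 CPM. They moved over a narrower range, 0.23 to 0.96 on the log2 scale against 2.80 for the summed members. For Mup20 the closest were Ptpn3, Krtcap2, Rbbp4, Sppl2a and Crcp, with r of 0.977 to 0.993 and ranges of 0.32 to 0.63 against 1.58 for Mup20. These are descriptions over 6 libraries that share their scaling factors and vector groups.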

How the data were processed

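Liver RNA of 6 mice was sequenced on a DNBseq platform. The authors deposited an expected count (estimated count, not normalized, not whole) and FPKM per transcript for each liver, and a table of FPKM per gene. The submitters' processing notes name HISAT2, Bowtie2, RSEM and mm10, whereas the methods of the study name STAR, HTSeq and DESeq2. Expected counts were summed per gene ID and rounded. The test was edgeR 4.0.16 (R 4.3.3) quasi-likelihood with TMM scaling, filterByExpr and no factor but the vector, adjusted by Benjamini-Hochberg over 13431 genes. SE came from the quasi-F statistic. Alternatives used DESeq2 1.42.0, other scalings and filters, covariates, limma 3.58.1 on log2(FPKM + 1) or log2(FPKM + 0.1), and each library left out. The steps were tested on simulated data. Libraries of a group differed by more than sampling noise (chi-square per gene of at least 25.8). Totals of at least 20356440 counts leave counting error small for all members but Mup9 and Mup17 in AAV8-TBG-Cre. CPM here divides by the TMM-scaled library size. Groups came from the sample titles.

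The members and gene lists were chosen with earlier results of these data known. Named were all Mup genes, the list genes with an adjusted p under 0.05, 9 growth hormone and liver regulators (Ghr, Stat5b, Bcl6, Cux2, Igf1, Socs2, Cish, Zhx2, Hnf4a), Mettl14, and the 5 genes nearest the summed members and nearest Mup20. Other list genes were named after their values were seen. Promoters and positions are RefSeq (GRCm38.p6). Coding identity used GENCODE vM1 (NCBIM37), for sequence only. All 14 RefSeq Mup windows were found once there, at the gene of the same symbol. Protein sequences were not used here.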

Additional observations from a re-analysis of the deposited data

How the results depend on the processing

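Of 169 alternative log2 fold changes of the members, 164 moved by less than the spread between replicates, 5 moved more and 0 changed the sign of a member past the study's threshold. Mup20 was below 0 in 8 of 17. The 5 were Mup7, Mup11, Mup17 and Mup19 without AAV8-TBG-Cre replicate 3, and Mup11 at -5.04 with the replicate block. The log2 ratio of the summed Mup CPM was -1.55 with RLE or with TMM factors set without the Mup genes, -1.41 in FPKM, and -2.0 to -1.21 with each library left out. In FPKM the median of all genes shifted to 0.11 (pseudocount 1) or 0.14 (pseudocount 0.1).

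Against 125 genes called between the vectors (65 higher, 60 lower) there were 1157 by DESeq2 (748 higher, 409 lower), 66 with upper quartile scaling, 372 without a filter on low counts, 76 with at least 10 counts in every library (28 higher, 48 lower), 214 with the name form as a covariate, 22, 27 and 9 by limma (log2(FPKM + 1), log2(FPKM + 0.1), and log2(FPKM + 1) without a filter), and 0 to 928 with each library left out. It was 0 without AAV8-TBG-Cre replicate 2 or AAV8-TBG-GFP replicate 2, where 1923 and 2079 genes had an unadjusted p under 0.05, and 928 without AAV8-TBG-Cre replicate 1. With the replicate number as a block, 7 genes were called. Same-numbered libraries deviated with correlations of 0.07, -0.29 and 0.24, so the numbers were not taken to pair mice. Against 187 genes called between long and short names there were 689 by DESeq2, 292 without a filter, and 4 to 70 with each library left out. The causes were not tested. With 3 mice a group, and shared fragments in the alike members, differences smaller than the spread given were not detectable.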
